A study of Mus musculus with 18 samples.

Results

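The immunoglobulin kappa locus (Igk) on chromosome 6 was among the regions joined to the broken bait in these cells, and the joins described here are those that landed in it outside the J segments. They were chosen by position alone, as junctions at chr6:67555497-70722399 or chr6:70724101-70726966 (mm10), on either side of the J segments. The rule found 623 joins among 30937 junctions in 12 libraries, or among the 21922 junctions that lay in the genome and not on the substrate. A further 378 Igk joins lay at the J segments and are left out. Of the 623, 585 lay in the V region (chr6:67555497-70704177), 2 in the 18222 bp between the last V segment and the J segments, and 36 on the C kappa side.

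The bait was a coding end made by RAG in pMX-INV, a recombination substrate integrated in the genome of B cells from strain 129 mice transformed with v-abl. HTGTS, a sequencing assay for translocations across the genome, reads outward from a primer beside that end and records the sequence joined to it, the prey. The 4 genotypes were CtIP A/A DNA-PKcs -/- (called the double mutant below), DNA-PKcs -/- (the DNA-PKcs single mutant), CtIP A/A and WT, and each gave 2 libraries from G2 and 1 from G1. G2 cells had 24 h of the Abl inhibitor STI571 (3 µM) and then 48 h of the CDK1 inhibitor RO3306 (10 µM), and G1 cells had STI571 (3 µM) for 48 or 72 h. The A/A allele replaces a phosphorylation site of CtIP, a protein that promotes resection of DNA ends, and DNA-PKcs is the kinase that lets Artemis open hairpin ends. Whether replicates came from separate cultures is not stated. The spread behind each p-value is therefore that of these libraries and may be technical, and genotype cannot be told apart from cell line.

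Igk recombination joins 1 of many V kappa segments to a J kappa segment. RAG cuts beside a recombination signal sequence (RSS), made of a heptamer, a spacer and a nonamer, and V kappa segments carry the short-spacer kind on their J side. Each cut leaves a hairpin coding end on the segment and a blunt signal end on the RSS. V kappa segments lie in both orientations, so some rearrange by deletion and others by inversion. The intron between the J segments and C kappa holds a lone heptamer that RAG uses when kappa is deleted in cells that go on to lambda.

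The sequences below show the last 20 bases of 7 V segments, followed by the RSS, on the strand of the segment, with heptamer and nonamer in capitals. They come from GRCm38.p6 (mm10), with the segment ends of GENCODE M21. The first 4 are the V genes with most border joins, Igkv4-51 has an RSS close to that of the substrate, Igkv11-114 is a pseudogene with a 1-base change in its heptamer, and Igkv3-1 is the segment nearest to the J segments. The intron line shows the lone heptamer in capitals and its flanks.
Igkv1-135, chr6:67610489-67610536, + strand: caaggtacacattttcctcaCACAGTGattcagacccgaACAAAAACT
Igkv19-93, chr6:68736269-68736316, - strand: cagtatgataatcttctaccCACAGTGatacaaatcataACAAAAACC
Igkv6-32, chr6:70073996-70074043, - strand: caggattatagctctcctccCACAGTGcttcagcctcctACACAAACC
Igkv8-30, chr6:70117033-70117080, - strand: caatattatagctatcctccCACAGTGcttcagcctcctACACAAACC
Igkv4-51, chr6:69681378-69681425, - strand: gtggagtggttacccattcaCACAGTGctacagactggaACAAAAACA
Igkv11-114, chr6:68164904-68164951, + strand: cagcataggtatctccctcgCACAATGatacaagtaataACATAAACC
Igkv3-1, chr6:70704158-70704205, + strand: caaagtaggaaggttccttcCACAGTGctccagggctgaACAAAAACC
J-C kappa intron heptamer, chr6:70724984-70725050, + strand: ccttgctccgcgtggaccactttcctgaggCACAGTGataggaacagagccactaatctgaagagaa

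The borders of all V segments together held 434 of the 623 joins. Of 102 annotated V genes in the region, 98 had an RSS directly after the last annotated base, counted as a heptamer that starts with CAC and at least 12 of 16 heptamer and nonamer bases equal to the consensus. A join was called coding side when its prey read from the border into the V segment and signal side when it read away through the RSS. Either call needed a position from 10 bp past the border to 100 bp along the side read, a window set after the positions had been seen. By these windows 240 joins were coding side, 194 were signal side, and 131 lay elsewhere in the V region. A further 20 joins in the V region had a prey of telomere repeat, and the intron heptamer took 34 of the 36 joins on the C kappa side. The constant exon of Igkc (chr6:70726435-70726966) held none. V borders took 20 of 40 and 60.3% of joins in double mutant G2 and 74.2% in G1, 11 of 22 and 63.2% in G2 of the DNA-PKcs single mutant and 63.9% in its G1, 88.9% in CtIP A/A G1 and 87.0% in WT G1. Both G1 libraries with DNA-PKcs thus lay above the 6 libraries without it.

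Few of the deposited lines were identical, with 621 distinct combinations of library, position, strand and bait end and 560 distinct positions and strands. The authors' filters are not known here, so repeated lines may have been removed before deposit. The prey alignment was at least 26 bp long (median 73 bp) and 473 preys equalled the reference without a change. For 495 joins the next best place in the locus needed at least 3 more edits, and 3 joins outside the telomere repeat fitted another place in the locus equally well. The rest of the genome was not searched for other places. The reference is from C57BL/6J and the cells are of strain 129.

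The plot of shares per library gives the frequency of these joins. In the double mutant they made up 1.08% (40 of 3712) and 3.80% (73 of 1921) of genome junctions in G2, against 5.66% (295 of 5213) in G1. In the DNA-PKcs single mutant they made up 0.782% (22 of 2813) and 1.04% (19 of 1820) in G2, against 2.65% (97 of 3658) in G1. In CtIP A/A they made up 0.549% (1 of 182) and 0.935% (2 of 214) in G2, against 5.94% (18 of 303) in G1. WT had 0 of 165, for which 3 counts would be 1.82% and the Wilson interval reaches 2.28%, and 1.92% (2 of 104) in G2, against 2.97% (54 of 1817) in G1. In each genotype both G2 libraries lay below the G1 library. The 95% Wilson intervals ran from 0.0971% to 3.05% for the first CtIP A/A G2 library and from 5.06% to 6.32% for the double mutant G1 library. PCR reads carry no molecular identifiers, so intervals and the limit for a count of 0 cover counting error only.

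**Figure D1:**
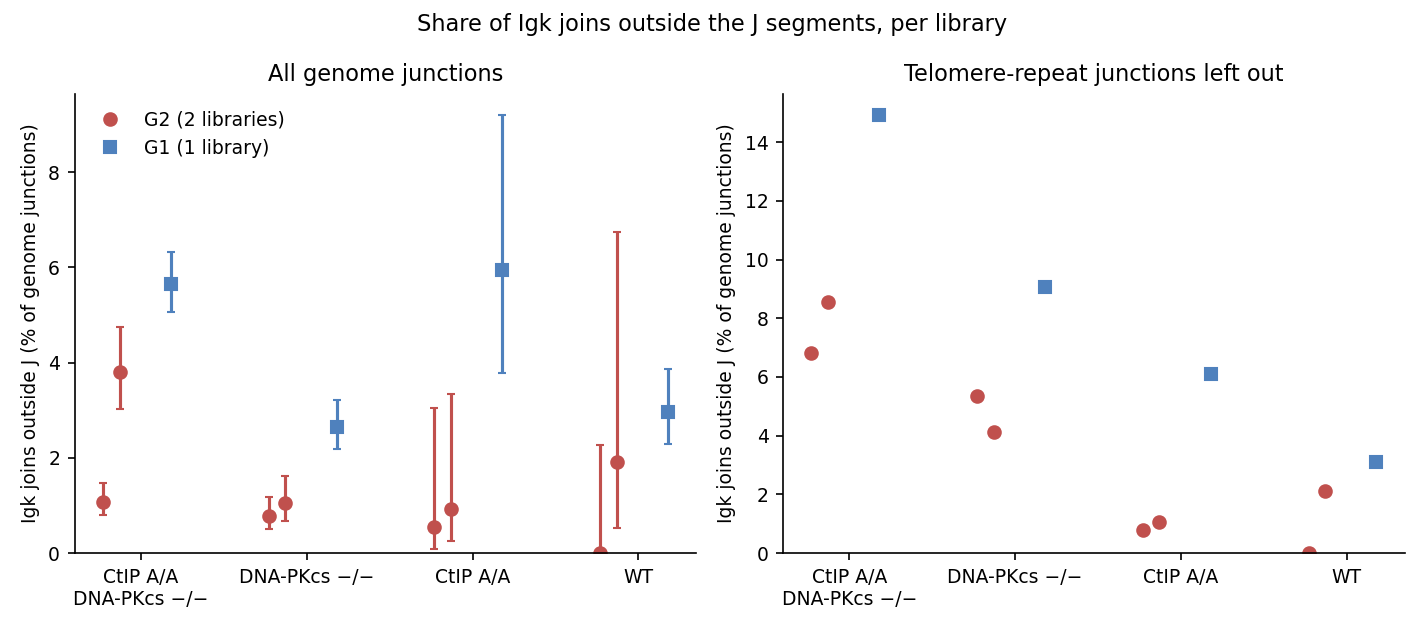
Igk joins outside the J segments as a percentage of genome junctions (left, with 95% Wilson intervals) and after leaving telomere-repeat junctions out of joins and total (right), for 8 G2 libraries (circles) and 4 G1 libraries (squares). Both G2 circles lie below the G1 square in each of the 4 genotypes, and on the right the 6 libraries without DNA-PKcs lie between 4.12% and 14.9%.

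Averaged over the 4 genotypes, the share was 1.26% in G2 and 4.31% in G1, a difference of −3.04 points (95% interval −5.01 to −1.33, from inverting the permutation test). A two-sided exact permutation test within genotypes gave p = 0.0123, the smallest p that its 81 arrangements allow, and an adjusted p of 0.0370 over the 3 comparisons. G2 was lower in 4 of 4 genotypes. Leaving out a library removes arrangements. The adjusted p was then above 0.05 in 11 of 12 cases (0.0556 to 0.222, the highest without CtIP A/A G1) and was 0.0278 without WT G2 replicate 2, with differences from −3.48 to −2.32 points (exact permutation). One sequencing run held libraries of both phases, and in it G2 differed from G1 by −2.38 points (p = 0.125, exact permutation). A lower share of antigen receptor joins in G2 was already known for these data, so this result is no independent support.

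DNA-PKcs status gave different answers with and without telomere-repeat junctions, those whose prey holds at least 3 telomere units. The stratum-averaged share was 2.92% without DNA-PKcs and 2.65% with it (difference 0.262 points, interval −0.594 to 2.15, higher in 1 of 4 strata, p = 0.667, exact permutation within the 4 strata of CtIP genotype and phase). Telomere-repeat junctions filled much of the total in the libraries without DNA-PKcs, 1090 to 3261 per library, against 8 to 73 in those with it. The totals differed as well. Without DNA-PKcs the lowest and highest counts were 1090 of 1921 and 3261 of 5213 genome junctions. With it the counts in CtIP A/A were 53 of 182 and 23 of 214 in G2 and 8 of 303 in G1. In WT they were 45 of 165 and 9 of 104 in G2 and 73 of 1817 in G1. With such junctions left out of both joins and total, a setting chosen after the data had been seen, the share was 9.09% without DNA-PKcs and 2.79% with it. That difference of 6.30 points (3.69 to 8.37) was positive in 4 of 4 strata (p = 0.0139, adjusted p = 0.0208, exact permutation). The libraries without DNA-PKcs ran from 4.12% to 14.9% on this scale, and those with it ran from 0 to 6.10%.

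CtIP genotype did not pass the threshold. The share averaged 3.70% in CtIP A/A and 1.87% in CtIP wild type, a difference of 1.82 points (interval −0.670 to 3.01, p = 0.139, adjusted p = 0.208, exact permutation). Without telomere-repeat junctions the values were 7.40% and 4.49% (difference 2.91 points, interval −0.141 to 4.96, p = 0.0556, exact permutation). The CtIP and phase differences were also compared between DNA-PKcs states, and none of those 4 tests passed (lowest p = 0.5, adjusted p = 0.728, exact permutation).

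Border joins spread over the whole V array, as the plot of joins by distance shows. Of 176 annotated V segments, 94 had at least 1 border join, namely 84 of 102 V genes and 10 of 74 pseudogenes. Among pseudogenes, 9 of the 29 with an RSS and 1 of the 45 without one had a join. Joins at V genes, pseudogenes left out, numbered 3.80 per gene within 1000 kb of Igkj1 (156 joins, 41 genes), 3.28 from 1000 to 2000 kb (105 joins, 32 genes) and 4.79 beyond 2000 kb (139 joins, 29 genes). These are descriptions over pooled libraries, of which the double mutant G1 library gave 219 of the 434 border joins. Plus-strand V genes took 180 joins over 38 genes and minus-strand V genes took 220 joins over 64 genes.

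**Figure D2:**
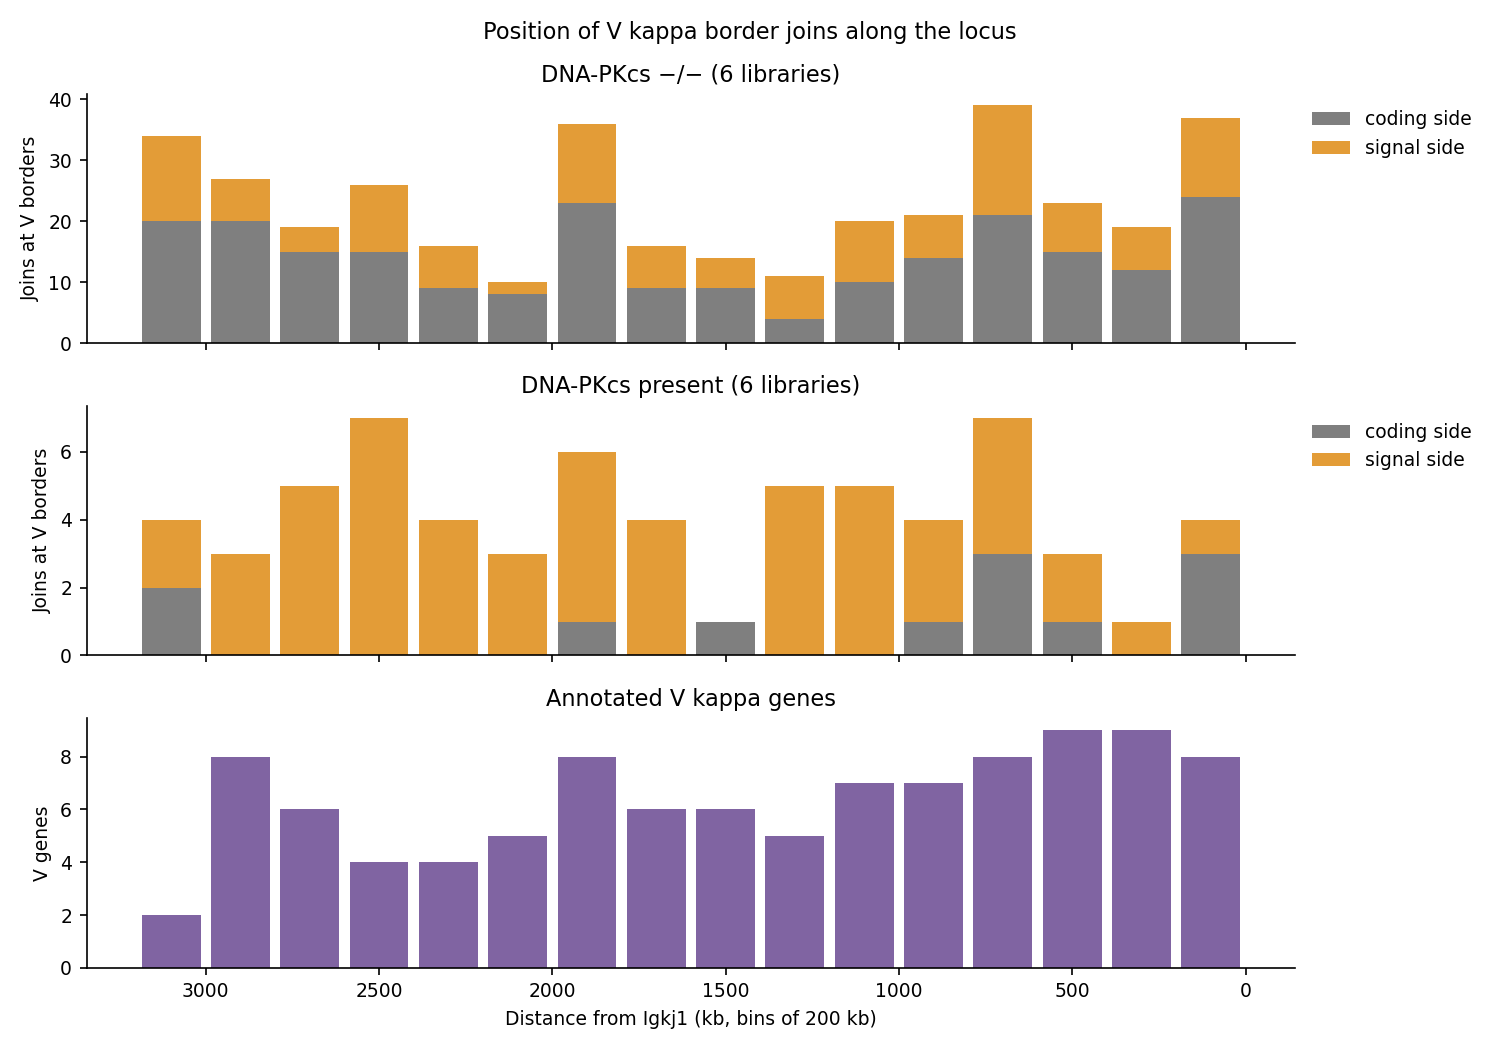
Joins at V borders in 200 kb bins by distance from Igkj1, stacked by coding side (grey) and signal side (orange), for the 6 libraries without DNA-PKcs (top), the 6 with it (middle), and the number of annotated V genes per bin (bottom), with counts pooled over libraries. Every bin up to 3200 kb holds joins of both kinds of library, and signal-side joins make up 54 of 66 joins in the middle panel.

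The median distance from Igkj1 was 1611.7 kb over all border joins and lay between 1482 and 1888 kb in 6 of the 8 libraries with at least 10 joins. Both G2 libraries of the DNA-PKcs single mutant lay outside that range. Replicate 2 had 11 of its 12 border joins within 1000 kb of Igkj1 and 0 beyond 2000 kb. Replicate 1 had 1 of 11 within 1000 kb and 6 beyond 2000 kb. At the J segments replicate 2 held 2 joins and replicate 1 held 0. With 11 and 12 joins the difference between these replicates was not tested.

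Use of single segments was uneven. The 10 segments with the highest mean share over libraries held 146 of the 434 border joins, and 20 segments had 1 join each. That share counts joins within 1000 bp of a segment, so the 10 are not those with most border joins. Outside the 10, Igkv11-125 (14), Igkv3-7 (13) and Igkv12-46 (12) had more border joins than several of them. Igkv1-135 (chr6:67609713-67610508, plus strand, 3112 kb from Igkj1) led with 37 joins in 7 libraries, 22 coding side and 15 signal side. Its joins numbered 8 in double mutant G2, 20 in double mutant G1, 1 in G2 and 4 in G1 of the DNA-PKcs single mutant, 2 in CtIP A/A G1, 1 in WT G2 and 1 in WT G1. Igkv19-93 (chr6:68736297-68736780, minus strand, 1986 kb) followed with 30 joins in 7 libraries, 19 coding side and 11 signal side. Both are annotated as V genes, and both took joins in both arrest phases and both DNA-PKcs states.

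**Figure D3:**
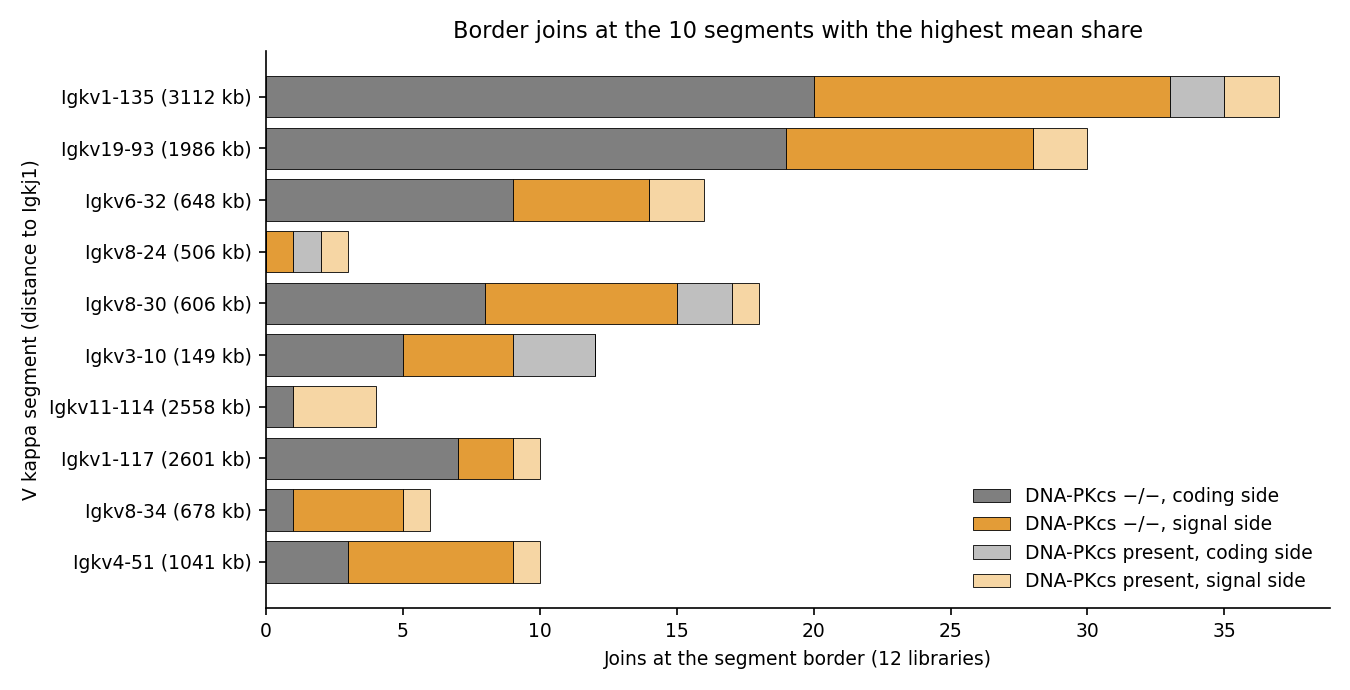
Joins at the border of the 10 V kappa segments with the highest mean share of V region joins, ordered from the highest share at the top, with distance to Igkj1 in brackets. Bars stack coding-side and signal-side joins of libraries without DNA-PKcs (dark) and with it (pale), and Igkv1-135 with 37 and Igkv19-93 with 30 joins are the longest.

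The other named segments held fewer joins. Igkv8-30 (chr6:70117061-70117620) had 18 joins in 6 libraries, Igkv6-32 (chr6:70074024-70074603) had 16 in 7 libraries and Igkv3-10 (chr6:70572633-70573230) had 12 in 6 libraries. Igkv1-117 (chr6:68121046-68121827) and Igkv4-51 (chr6:69681406-69681975) had 10 each, and Igkv8-34 (chr6:70044112-70044678) had 6. Igkv8-24 (chr6:70216858-70217421) ranked among the 10 by its 11 joins within 1000 bp, but only 3 lay at its own border. The 1000 bp window also takes in the border of Igkv6-25, which had 5, and some joins at neither border. The pseudogene Igkv11-114 (chr6:68164457-68164923) had 4 border joins, 3 of them signal side in WT G1 and 1 coding side in double mutant G1. Igkv3-1 (chr6:70703578-70704177), the V segment closest to the J segments, had 1 join, in the first double mutant G2 library, although its RSS equals the consensus at 7 heptamer and 9 nonamer bases.

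Joins of single libraries stacked at these borders. In the double mutant G1 library, windows of 50 bp with at least 5 joins, merged where they overlapped, lay at Igkv1-135 (20 joins), Igkv19-93 (15), Igkv3-7 (11), Igkv12-46 (9), Igkv11-125 (8), Igkv6-32 (7), Igkv8-30 (7), Igkv3-2 (7), Igkv1-117 (6) and Igkv3-10 (5). The second double mutant G2 library had such stacks at Igkv1-135 (8) and Igkv19-93 (5), and the DNA-PKcs single mutant G1 library had 1 at Igkv19-93 (5). All lines of each such window differed in position, strand or bait end, with no identical pair among them.

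The side of the border is described per library. In the double mutant, signal-side joins made up 5 of 20 and 22 of 44 border joins in G2 (intervals 11.2% to 46.9% and 35.8% to 64.2%), and 36.1% (79 of 219, up to 42.6%) in G1. In the DNA-PKcs single mutant they made up 45.5% (5 of 11) and 58.3% (7 of 12) in G2, and 35.5% (22 of 62, 24.7% to 47.9%) in G1. In CtIP A/A G1 they made up 93.8% (15 of 16, 71.7% to 98.9%) and in WT G1 80.9% (38 of 47, 67.5% to 89.6%). Both G1 libraries with DNA-PKcs lay above all 6 libraries without it. The intervals cover counting error within a library and not the spread between libraries, and each genotype had 1 G1 library. The G2 libraries with DNA-PKcs held few border joins, 1 signal side and 0 in CtIP A/A, and 0 and 2 in WT, both of these coding side. The 2 WT joins thus lie on the side opposite to most joins of the G1 libraries with DNA-PKcs. With so few joins in those libraries, an exact permutation within phase and CtIP genotype could not reach 0.05, and the shares are given with no test.

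The J segments are the normal partners of V segments. There, by the same windows, 79 of 311 border joins (25.4%) were signal side without DNA-PKcs and 23 of 57 (40.4%) with it, pooled over libraries. In the WT G1 library, which gave most joins with DNA-PKcs, signal-side joins made up 36.6% of J joins (15 of 41) and 80.9% of V joins. These shares were not tested against each other.

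Ends at the V borders had longer losses in libraries without DNA-PKcs by pooled counts, which were not tested. Coding-side joins lay a median of 11 bp inside the border without DNA-PKcs and 5 bp with it, and 77 of 228 (33.8%) against 0 of 12 had lost over 20 bp. Most of the 77 came from double mutant G1, with 53 of 140 joins. The other libraries without DNA-PKcs had 5 of 15 and 2 of 22 in double mutant G2. In the DNA-PKcs single mutant they had 2 of 6 and 0 of 5 in G2 and 15 of 40 in G1. Signal-side joins lay a median of 7.5 bp and 3 bp past the border, and 39 of 140 (27.9%) against 1 of 54 (1.85%) had lost over 20 bp. Within 5 bp of a clean cut lay 66 of 140 signal-side joins (47.1%) without DNA-PKcs and 43 of 54 (79.6%) with it. The plot of positions around the border shows the long tails of both kinds without DNA-PKcs. Signal-side loss varied between libraries without DNA-PKcs, with a median of 1 bp in the second double mutant G2 library and 22 bp in the first, of 22 and 5 joins, so these pooled values are descriptions.

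**Figure D4:**
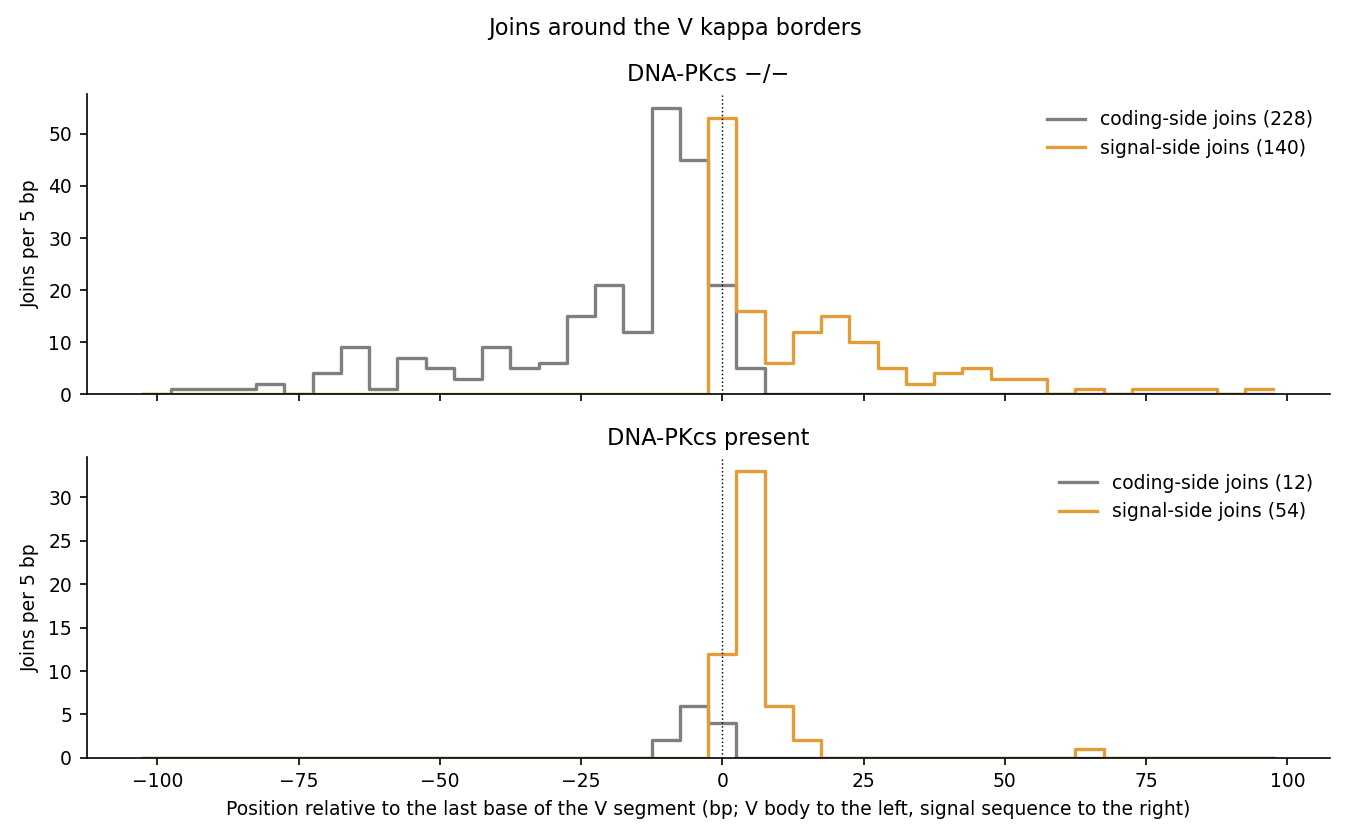
Joins per 5 bp around the last base of the V segment (dotted line), with the V body to the left and the RSS to the right, for coding-side (grey) and signal-side (orange) joins in libraries without DNA-PKcs (top, 228 and 140 joins) and with it (bottom, 12 and 54 joins), pooled over libraries. With DNA-PKcs the joins lie close to the border apart from 1 signal-side join, and without it both kinds tail out, to the left for coding-side and to the right for signal-side joins.

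Some signal-side joins at 1 V family shared their RSS with the bait. In 12 joins the bait and prey alignments overlapped by 20 to 29 bp on the read, while the longest overlap of any other join was 12 bp. All 12 were signal-side joins at Igkv4 segments, 8 of them different, and Igkv4-51 took 4. The bait alignment ran 27 to 29 bp beyond the coding end in them, which is the length of the 28 bp RSS of the substrate. The RSS of the substrate was read from 112 reads that span it, of which 99 agreed base for base. It differed by at most 3 bases from the RSS of 26 of the 33 Igkv4 segments and of no other V segment. Igkv4-54, with 2 of the 12 joins, is counted outside those 26, because no RSS directly follows its annotated end. At RSS bases that the substrate and the V segment have in common, the origin of the bases in these reads cannot be told apart. The joins at Igkv4-79, Igkv4-75 and Igkv4-77, and that of WT G1 at Igkv4-51, began at the first RSS base. Their preys equalled the V segment without an edit, also at the 3, 2, 1 and 1 RSS bases that differ from the substrate. At those bases the reads thus hold the sequence of the V segment. The 12 joins numbered 5 of 546 without DNA-PKcs and 7 of 77 with it, 5 of these in WT G1, and count as microhomology in what follows.

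Join structure was compared with other genome junctions of the same library, outside antigen receptor loci and without telomere repeat, in the 8 libraries with at least 10 joins. Igk joins held fewer insertions, 23.7% ± 14.1 against 38.8% ± 7.77 (SD, n = 8 libraries), a difference of −15.1 points, lower in 8 of 8 libraries (p = 0.0078, adjusted p = 0.0391 over 5 measures, exact sign-flip permutation). They were more often direct, with neither insertion nor homology, 31.9% ± 13.7 against 14.9% ± 4.43 (difference 17.01 points, higher in 7 of 8 libraries, p = 0.0156, adjusted p = 0.0391, exact sign-flip permutation). Without 1 library the smallest possible p was 0.0156, and both adjusted p were above 0.05 except without WT G1 (0.0391 each, exact sign-flip permutation). The plot of structure per library shows a spread of differences. In double mutant G2, insertions made up 22.5% and 26.0% of Igk joins against 30.2% and 30.7% of other junctions, and in its G1 they made up 12.2% against 36.7%. In the DNA-PKcs single mutant they made up 27.3% and 5.26% against 34.2% and 35.4% in G2, and 11.3% against 48.5% in G1. They made up 38.9% against 48.1% in CtIP A/A G1 and 46.3% against 46.8% in WT G1, the library with the smallest difference. Direct joins made up 17.5% and 39.7% of Igk joins against 10.8% and 17.1% of other junctions in double mutant G2, and 35.3% against 13.8% in its G1. In the DNA-PKcs single mutant they made up 27.3% and 52.6% against 15.02% and 23.7% in G2, and 40.2% against 16.9% in G1. They made up 33.3% against 11.5% in CtIP A/A G1 and 9.26% against 10.3% in WT G1, the only library of the 8 where direct joins were fewer among Igk joins.

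**Figure D5:**
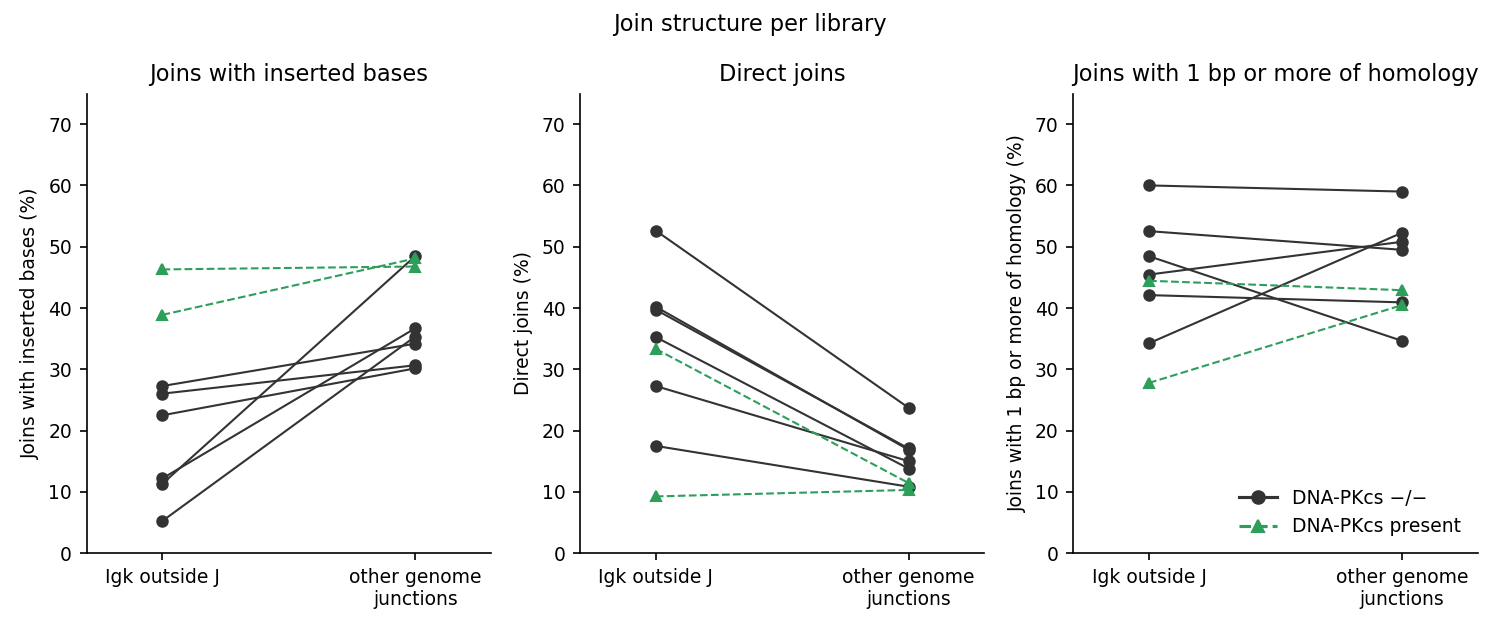
Percentage of joins with insertions (left), direct joins (middle) and joins with at least 1 bp of homology (right) for Igk joins outside the J segments and other genome junctions, with a line per library (8 libraries, circles without DNA-PKcs, triangles with it). Every line rises to the right in the left panel, and 7 of 8 fall to the right in the middle panel.

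The other 3 measures did not pass the threshold. Homology of at least 1 bp was found in 44.4% of Igk joins and 46.3% of other junctions (adjusted p = 0.771, exact sign-flip permutation). The median bait end deletion, counted from the most frequent bait end, was 17.6 bp and 27.1 bp (difference −9.50 bp, lower in 6 and equal in 2 of 8 libraries, p = 0.0312, adjusted p = 0.0521, exact sign-flip permutation). Plus-strand preys made up 47.7% and 47.6% (adjusted p = 0.977, exact sign-flip permutation). Set against coding joins on the substrate in place of other genome junctions, Igk joins held 23.7% insertions against 32.9% (adjusted p = 0.117) and 31.9% direct joins against 28.4% (adjusted p = 0.527, both exact sign-flip permutation), so the structure calls depend on the set compared. Without the 12 joins that share the RSS, the differences were −14.0 points for insertions and 17.6 points for direct joins (adjusted p = 0.0521 for each, exact sign-flip permutation).

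Within the Igk joins, structure is described by DNA-PKcs status, with no test. Insertions were found in 82 of 546 joins (15.02%) without DNA-PKcs and in 34 of 77 (44.2%) with it. Direct joins numbered 195 (35.7%) and 11 (14.3%), and homology joins 269 (49.3%) and 32 (41.6%). The bait end was counted as intact, with no bases lost from the most frequent end, in 49 joins (8.97%) without DNA-PKcs and 63 (81.8%) with it. Joins whose bait alignment ran past that end are counted as intact too. The median loss from the bait end was 20.5 and 9 bp in double mutant G2 and 27 bp in its G1, 27.5 and 14 bp in G2 of the DNA-PKcs single mutant and 43 bp in its G1, and 0 bp in both CtIP A/A G1 and WT G1. Other genome junctions had medians of 18 to 53 bp without DNA-PKcs and 0 bp in CtIP A/A G1 and WT G1. For coding joins on the substrate the medians were 12.5 to 32 bp, against 1 and 4 bp in these G1 libraries. The split in bait loss is thus not particular to Igk joins. Insertions in substrate coding joins made up 16.7% to 32.4% without DNA-PKcs, against 65.9% and 63.1% in CtIP A/A G1 and WT G1. Among signal-side V joins alone, insertions made up 10.1% (8 of 79) in double mutant G1 and 4.55% (1 of 22) in the DNA-PKcs single mutant G1, against 40.0% (6 of 15) in CtIP A/A G1 and 44.7% (17 of 38) in WT G1.

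The C kappa side held a single stack. Its 34 joins lay around the heptamer CACAGTG at chr6:70725014-70725020, the only exact copy of that heptamer in the intron between Igkj5 and Igkc, and inside the annotated non-coding gene Gm30211. The bases at a nonamer's place match the consensus at 5 of 9 for a spacer of 12 bp and at 5 of 9 for one of 23 bp. Reading into the intron towards the J segments were 25 joins, 46 bp before to 1 bp past the base next to the heptamer (median 12 bp before), and reading through the heptamer were 9, from 0 to 34 bp past it (median 2 bp). The second double mutant G2 library gave 14 of the 34, 19.2% of its 73 Igk joins (interval 11.8% to 29.7%). The double mutant G1 library gave 11 (3.73%), the DNA-PKcs single mutant G1 library 3 (3.09%), CtIP A/A 1 in G2 and 1 in G1, and WT G1 4 (7.41%). The first double mutant G2 library and both G2 libraries of the DNA-PKcs single mutant had 0 of 40, 22 and 19 joins.

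Away from the borders, 126 of 131 joins came from libraries without DNA-PKcs, where they made up 23.1% of Igk joins, against 5 of 77 (6.49%) in libraries with DNA-PKcs. Of the 131, 65 stood alone, with no other such join within 100 bp, and 42 fell into 7 stacks of at least 4 joins. All 42 came from libraries without DNA-PKcs, but those with it had only 5 such joins to stack, so this count says little about DNA-PKcs. In each of the 7, every join reading left lay left of, or at, every join reading right. All 7 held CACA or its reverse complement TGTG, the first bases of a heptamer, within 21 bp around the middle, against 17.1% of windows of that length over the locus. This motif was chosen after the stacks had been seen, and a match is a description only. The 4 stacks with most joins (9, 8, 7 and 5) are shown with these bases in capitals.
Stack at chr6:68164396-68164453, shown 68164415 to 68164445, + strand: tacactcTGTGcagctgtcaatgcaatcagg
Stack at chr6:68122664-68122720, shown 68122653 to 68122683, + strand: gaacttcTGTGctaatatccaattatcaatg
Stack at chr6:68252818-68252850, shown 68252814 to 68252844, + strand: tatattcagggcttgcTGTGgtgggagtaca
Stack at chr6:68926602-68926656, shown 68926640 to 68926670, + strand: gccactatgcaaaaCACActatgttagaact

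Of the 7 stacks, 5 lay outside annotated V segments. The stack of 9 joins, in 4 libraries, fell just before the annotated start of Igkv11-114, and the stack of 8, in 3 libraries, fell 841 bp past the border of Igkv1-117. The stacks of 7 and of 5 shown above fell 4040 bp before the border of Igkv14-111 and 3614 bp past that of Igkv13-85. The other 3 held 4 to 5 joins each, and of these the stacks at chr6:68302630-68302709 and chr6:68437570-68437613 fell inside the annotated segments Igkv2-109 and Igkv15-103. All joins of the 7 stacks were distinct lines.

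Of the 623 joins, 20 had a prey of telomere repeat, all from libraries without DNA-PKcs, which held 1 to 5 of them each. A prey of that kind also matches chromosome ends, so the positions the authors' alignment gave for these 20 may not be the place of the join. Leaving them out changed none of the 8 tested calls.

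The remaining joins were few. The stretch between Igkv3-1 and the J segments held 2 joins, at chr6 positions 70716011 and 70718844, and the C kappa side held 2 outside the heptamer stack, at 70724157 and 70724831. All 4 came from the double mutant. The V to J stretch is 18222 bp long, against 3148681 bp for the V region with its 585 joins.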

How the data were processed

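Coding-join libraries from v-abl-transformed B cells were analysed, 12 in all, and the 6 samples with I-PpoI breaks are not analysed here. Per the labels' protocols, sheared DNA went through linear amplification from a biotinylated bait primer and nested PCR, BstBI digestion against unrearranged substrate, and MiSeq sequencing. The alignment used mm10 plus the substrate as its own chromosome, per the labels' protocols, and Bowtie2, per the submitters' processing notes. Which junction caller and filters were applied is not given in the sources used here. In the deposited lines, 1 per junction, alignments have base positions without normalization, and strand is a score of 1 or −1 per the file headers. Another column gives bases aligned past the break site, which was above 0 in 6 of the 623 joins. Measured instead from the RSS of the substrate, the bait alignment ran past the coding end in 38 of the 623. Of these, 21 were signal-side joins at V borders. The 6 are thus not all joins with bait bases past the coding end.

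Joins, lists and windows were chosen with earlier results of these data known. A gap on the read between bait and prey was an insertion, an overlap was homology. Shares per library were compared by exact permutation within strata (144 arrangements for genotypes with a smallest p of 0.0139, 81 for phase with a smallest p of 0.0123) and structure by exact sign flips over 8 libraries (256 arrangements, smallest p 0.0078). Benjamini-Hochberg adjustment covered 3 and 5 tests, with a threshold of 0.05. Depth ran from 289 to 7068 junctions per library. Named segments were the 10 with the highest mean share of V region joins within 1000 bp over libraries with at least 10 joins, every 50 bp window with 5 joins of 1 library, and every C kappa feature with a join. The tests were first tested on simulated data. The sequence and position behind the 20 joins with telomere repeat are not reported here. Sequencing run 1 held the first G2 replicates and run 2 all other libraries, by the read names. Python 3.11.15, numpy 2.4.6, pandas 2.3.3, scipy 1.17.1, edlib 1.3.9.post1 and matplotlib 3.10.9 were used.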

Additional observations from a re-analysis of the deposited data

Results flagged for a closer look

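The intron heptamer made up 19.2% of the Igk joins of the second double mutant G2 library (14 of 73, interval 11.8% to 29.7%). That value stood apart from the other 5 libraries without DNA-PKcs, which ran from 0 to 3.73%, by Dixon's test. The 14 joins were 14 distinct lines with 13 different bait ends, 11 reading towards the J segments and 3 through the heptamer. The same library held 48 J joins, and the first double mutant G2 library held 14 J joins and 0 at the heptamer. Dixon's test was run for 12 measures in each of 2 sets of libraries where a set held enough of them, and chance flags about 1 in 20 such sets.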

How the results depend on the processing

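The G2 minus G1 difference stayed below 0 in all 22 alternatives. It lost its call on the log odds scale (−1.32, adjusted p = 0.0741, exact permutation) and in run 2 alone (−2.38 points, exact permutation p = 0.125), and leaving out 1 library gave −3.48 to −2.32 points. By exact permutation the DNA-PKcs difference was called with joins as a share of all junctions (0.997 points, adjusted p = 0.0417), with telomere-repeat junctions out of the total alone (6.78 points, adjusted p = 0.0208) and out of both (6.30 points). Leaving out 1 library gave −0.0787 to 0.602 points for DNA-PKcs and 1.43 to 2.16 points for CtIP, where the value of 2.06 points without WT G2 replicate 2 reached an adjusted p of 0.0278. Runs 1 and 2 alone gave 0.655 and 0.346 points for DNA-PKcs and 0.422 and 1.94 points for CtIP, all by exact permutation.

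With the replicate block the differences were 0.449 points for DNA-PKcs (adjusted p = 0.562) and 1.43 points for CtIP (adjusted p = 0.312, exact permutation), and phase allows no block because G1 has 1 library per genotype. Replicate 1 minus replicate 2 in G2 was −2.72, −0.262, −0.385 and −1.92 points in the double mutant, the DNA-PKcs single mutant, CtIP A/A and WT, and the number coincides with the run.

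By exact sign-flip permutation the insertion difference was −10.4 points after removing uncut bases and preys under 30 bp (adjusted p = 0.0977), −13.5 with at least 20 joins per library (adjusted p = 0.104), −9.20 against substrate coding joins and −14.0 without the joins that share the RSS. By the same exact permutation the direct-join difference was 14.2 with at least 20 joins (adjusted p = 0.104), 3.50 against substrate coding joins and 17.6 without those joins. Leaving out 1 library gave −17.2 to −11.9 points for insertions, 15.3 to 19.6 for direct joins, −4.18 to 0.362 for homology, −10.9 to −7.57 bp for bait deletion and −1.21 to 2.19 for the plus strand. For each of these settings the cause was not tested, and fewer libraries leave fewer arrangements. G2 libraries with DNA-PKcs held 0 to 2 joins, which limits every description of their positions and structure.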
